A study of Bos taurus with 8 samples.

Results

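The Toll-like receptors (TLRs) other than TLR4 are 9 genes, TLR1, TLR2, TLR3 and TLR5 to TLR10, taken here from the gene names in single-cell RNA sequencing (scRNA-seq) tables of bovine peripheral blood mononuclear cells (PBMC). Of the 9 genes, 7 were named among the 21861 genes listed, and 6 had at least 1 transcript in the cells kept. TLR5 (ENSBTAG00000000477) was listed without a transcript in those cells, and no row was named TLR1 or TLR8. The 6 detected genes were TLR2 (ENSBTAG00000008008), TLR3 (ENSBTAG00000008682), TLR6 (ENSBTAG00000014031), TLR7 (ENSBTAG00000022161), TLR9 (ENSBTAG00000018198) and TLR10 (ENSBTAG00000014042).

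TLRs are membrane receptors that recognise molecules shared by groups of microbes and signal through adaptor proteins to NF-κB and interferon regulatory factors. TLR2 sits at the cell surface and binds bacterial lipoproteins together with TLR1 or TLR6, and TLR5 binds flagellin. TLR3, TLR7, TLR8 and TLR9 sit in endosomes, where TLR3 recognises double-stranded RNA, TLR7 and TLR8 single-stranded RNA and TLR9 unmethylated CpG DNA. TLR10 belongs to the same subfamily as TLR1 and TLR6. Lipopolysaccharide (LPS) is the ligand of TLR4, which is given here only as the family member that the stimulus addresses.

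Whole blood of 4 female lactating Holstein cattle aged 2 years was pooled and divided into parts that were left without LPS or exposed to 2 µg/ml of it, for 2 h, for 4 h or for 8 h, and PBMC were isolated after the treatment. Each part gave 1 scRNA-seq and 1 single-cell ATAC sequencing (scATAC-seq) library, 4 of each and 8 in all. With 1 library per treatment and assay there was no replicate, so no test was made, the intervals below are 95% intervals that cover counting error only, and the libraries cannot be told apart from the treatments. No incubation time was stated for the part without LPS, so the effect of LPS cannot be told apart from that of time in incubation.

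Cells with 200 to 3000 genes, at least 200 transcripts counted by unique molecular identifiers (UMIs) and under 20% mitochondrial UMIs were kept, which left 7821 cells without LPS and 9865, 7387 and 3411 cells at 2 h, 4 h and 8 h. They held 38503367, 47875879, 40160248 and 16657841 UMIs in that order. The 8 h library stood apart, with 26.6% of its cells under 2000 UMIs (8.83% to 14.3% in the other libraries) and 10.9% of its barcodes above 3000 genes (4.90% to 7.29%). Between 8 and 24 cell barcodes were shared by each pair of libraries. Cells were gated on the UMIs of 4 genes. CD14, a monocyte surface protein, had to reach 2 UMIs, while 1 UMI sufficed for CD3E of the T cell receptor complex, for MS4A1 (CD20) of B cells and for NCR1 of natural killer (NK) cells. Cells that reached the limits of more than 1 lineage entered no gate (4.66% to 8.12%), which also left out the doublets visible at these limits. The CD3E, MS4A1 and NCR1 gates could hold cells with 1 CD14 UMI. So could the cells called without a gate marker below, which reached no limit. No doublet caller was run. The monocyte, B cell and NK cell marker lists were 7.0 to 16.2 times as high in their own gate as in the highest other gate. The T cell list was only 1.70 to 1.85 times as high in the CD3E gate as in the highest other gate. Gated cells were those deep enough to show their marker, and the median depth of the CD14 gate (9665 to 12607.5 UMIs per cell) exceeded that of the CD3E gate (4070 to 5199) and of the MS4A1 gate (3852 to 5204).

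The detected TLRs fell into 3 patterns by cell class. Among the 4 gates, TLR2 was highest in CD14-gated cells, TLR3 in CD3E-gated and NCR1-gated cells, and TLR9 and TLR10 in MS4A1-gated cells. TLR7 was found mainly in the MS4A1 gate, with an overlapping level in the CD14 gate without LPS, and TLR6 was spread over all gates. Levels are given as CPM, the UMIs of a gene per 1000000 UMIs of the same cells, and a gene was counted as higher or lower when its log2 ratio, with 0.5 UMI added to each sum, passed 1 or -1. Only genes whose sums together reached 20 UMIs were tested. Without LPS, each gate was set against the other 3 gates summed. In the MS4A1 gate 4 of 6 members (TLR6, TLR7, TLR9 and TLR10) were at least 2-fold higher, where 13.1% of all genes tested were. The CD14 gate had 1 of 6 (TLR2, against 14.5% of all genes), the CD3E gate 1 of 6 (TLR3, against 14.3%) and the NCR1 gate 1 of 6 (TLR3, against 14.9%). The last rested on 7 UMIs, and its ratio of 2.00 had an interval of 0.797 to 4.16. With LPS, the MS4A1 gate had 4 of 6 members higher at 2 h (11.6% of all genes), 3 of 6 at 4 h (10.7%) and 2 of 5 at 8 h (10.2%). TLR6 dropped out at 4 h and TLR9 was under the minimum of UMIs at 8 h. TLR2 remained the 1 member higher in the CD14 gate in each LPS library (12% of all genes at 2 h, 13.3% at 4 h and 13.2% at 8 h), and TLR3 the 1 member higher in the CD3E gate (14.8%, 13% and 10.4%). In the NCR1 gate TLR3 was higher at 2 h (13.1%), with a ratio of 2.48 (1.34 to 4.20), and 0 members were higher at 4 h (12.3%) and 8 h (12.1%), where the TLR3 log2 ratios of 0.97 and 1.0 fell just short of 1.

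**Figure D1:**
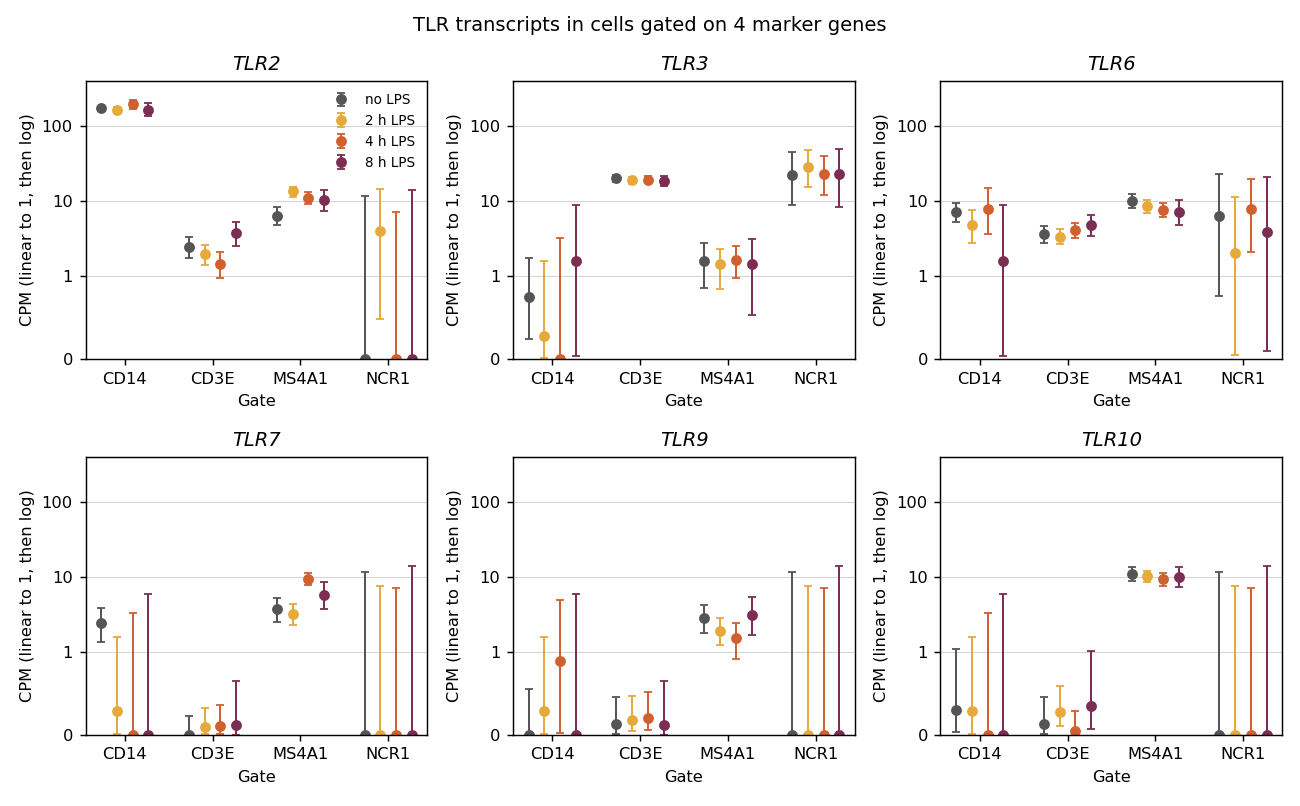
CPM of the 6 detected TLRs (vertical axis, linear up to 1 and logarithmic above) in cells gated on CD14, CD3E, MS4A1 or NCR1 (horizontal axis), with 1 point per library and 95% Poisson intervals. TLR2 stands at 165 to 196 CPM in the CD14 gate, TLR3 at 18.4 to 20.2 CPM in the CD3E gate and TLR10 at 9.23 to 10.9 CPM in the MS4A1 gate.

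TLR2 was at 172 CPM in CD14-gated cells without LPS (interval 162 to 182), and at 165, 196 and 167 CPM at 2 h, 4 h and 8 h. The 4 libraries lay close together, and the ratios to no LPS of 0.958 (0.866 to 1.06), 1.14 (0.985 to 1.32) and 0.969 (0.786 to 1.18) all had intervals that include 1. Relative to the other 3 gates the level was 46.1 times as high without LPS (37.2 to 57.7) and 27.1, 40.1 and 29.2 times as high with LPS. TLR4, which is also a monocyte receptor, was at 86.3 CPM in the same gate without LPS and at 96.4, 152 and 84.9 CPM with LPS. Its ratio at 4 h was 1.77 (1.48 to 2.10), so at this time its interval and that of TLR2 did not overlap.

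Over all cells, TLR2 went from 40.6 CPM without LPS (38.6 to 42.7) down to 27.4, 16.9 and then 15.4 CPM in the LPS libraries. The ratios were 0.675 (0.627 to 0.727), 0.416 (0.380 to 0.456) and 0.380 (0.332 to 0.434), and the intervals of the 4 h and 8 h levels overlapped with each other but not with the earlier levels. Over all cells, fewer cells of a type and less RNA per cell cannot be told apart. The CD14 gate took in 9.04% of the cells without LPS (8.41% to 9.70%), then 3.12%, 1.58% and 1.93%. These cells held 74.0% of all TLR2 UMIs without LPS but 44.8%, 32.8% and 41.2% with LPS. Cells that reached the limits of more than 1 lineage held 15.9% without LPS and 20.9%, 25.6% and 10.1% with LPS. The CD14 gate depends on the CD14 transcript, which over all cells was at 501 CPM without LPS and at 145, 82.6 and 111 CPM with LPS. Whether fewer monocytes were present or fewer of them reached 2 CD14 UMIs cannot be told apart here.

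The size of the TLR2 fall rested on the upper limit of 3000 genes. Barcodes above it held 50.5% of all TLR2 UMIs without LPS and, in the order of LPS times, 40.9%, 55.5% and 78.4%. With these barcodes included, TLR2 was at 54.5, 34.9, 27.1 and 38.6 CPM, the ratio at 4 h was 0.497 (0.467 to 0.529) and that at 8 h was 0.708 (0.662 to 0.757). The lowest level then stood at 4 h, and 8 h was no longer at least 2-fold lower. Without the barcodes under 2000 UMIs, which were most frequent in the 8 h library, the ratios were 0.377 at 4 h and 0.338 at 8 h. When each cell counted equally, the log2 ratios shrank, that at 4 h from -1.26 to -0.52 and that at 8 h from -1.39 to -0.58. In the CD14 gate the level stayed at 151 to 169 CPM without the upper limit, again with intervals of each ratio that include 1. The gate then held 1485 of 3158 TLR2 UMIs without LPS and 721 of 2223, 279 of 1527 and 209 of 1191 with LPS. Most TLR2 UMIs thus lay outside the gate in that setting, and its level does not describe them.

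**Figure D2:**
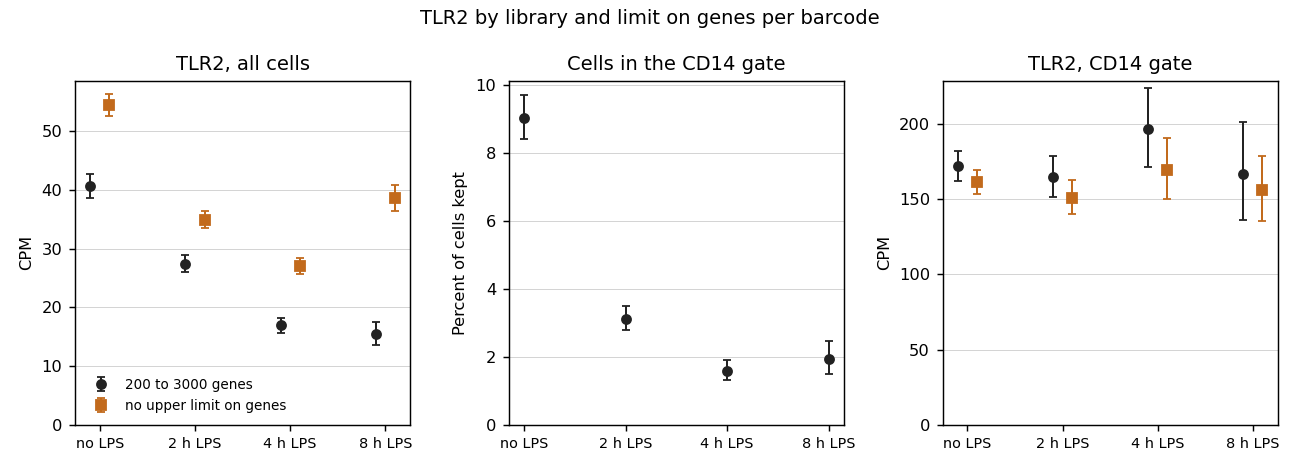
TLR2 over all cells (left) and in the CD14 gate (right) in CPM, and the CD14 gate as a percentage of cells kept (middle), by library with 95% intervals. Circles use the limit of 3000 genes and squares lift it: the level over all cells goes from 40.6 to 15.4 CPM with the limit and from 54.5 to 38.6 CPM without it, while the level in the gate stays between 151 and 196 CPM.

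TLR2 also reached a high level in a small set of cells outside the CD14 gate that had UMIs of CSF3R, the receptor of granulocyte colony-stimulating factor on neutrophils and some monocytes, and none of the 4 gate markers. This set of 325 cells was looked at after the values were seen. Its 61 cells without LPS had 19 TLR2 UMIs (249 CPM, interval 150 to 389), and its 124, 100 and 40 cells with LPS had 429, 370 and 233 CPM, with TLR4 at 318 to 494 CPM in the same cells. The intervals of TLR2 in this set and in the CD14 gate overlapped without LPS and at 8 h but not at 2 h (347 to 524 against 152 to 179) or 4 h (288 to 469 against 172 to 224). These cells were shallow, with a median of 1061 to 1693 UMIs. Cells without CSF3R that also reached the limit of no gate marker had 13.4, 30.5, 14.3 and 19.0 CPM of TLR2. All cells without a gate marker together held 4.28% of the TLR2 UMIs without LPS and 18% to 19.5% with LPS.

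In MS4A1-gated cells TLR2 was at 6.37 CPM without LPS (4.76 to 8.36) and at 13.4, 10.9 and 10.3 CPM with LPS. All 3 LPS libraries lay above the library without LPS, although the interval at 8 h (7.42 to 13.8) overlapped with it. The ratios were 2.10 (1.53 to 2.93), 1.72 (1.23 to 2.42) and 1.61 (1.05 to 2.46). The call at 2 h was lost with the CD14 limit at 1 UMI, with a pseudocount of 1 CPM and with cells weighted equally. Without the upper limit on genes the ratios were 2.19, 2.10 and 1.70, and without the barcodes under 2000 UMIs they were 2.14, 1.70 and 1.43, the last with an interval of 0.906 to 2.24. Marker lists of other cells were summed in the same gate. The monocyte list, of which 9 of 10 genes were named, was at 240 CPM without LPS and at 206, 193 and 234 CPM with LPS, and CSF1R and CD163 were at 0 at 4 h. The conventional dendritic cell list, with all 6 genes named, was at 29.5 CPM without LPS and at 84.7, 127 and 84.7 CPM with LPS, so it was higher in the same libraries as TLR2, with CLEC9A and XCR1 at 0 in all 4 libraries and FCER1A at 0 at 2 h. This list was higher with LPS than without it in the other gates too. It went from 13.6 to 16.3, 21.4 and 24.5 CPM in the CD3E gate and from 0 to 52.3, 11.6 and 57.1 CPM in the NCR1 gate. In the CD14 gate it went from 1081 to 1310, 1434 and 1119 CPM. TLR2 in the MS4A1 gate was 3.71% of its level in the CD14 gate without LPS and 8.14%, 5.57% and 6.16% with LPS, beside a median over the monocyte markers of 1.07%, 1.01%, 0.426% and 2.43%. The markers ranged widely around these medians, up to 51.5% for CEBPB without LPS. The part of monocytes, dendritic cells or their free RNA in the TLR2 count was not tested. TLR4 in the MS4A1 gate was at 2.82, 4.76, 7.01 and 3.82 CPM. In CD3E-gated cells TLR2 was at 2.45, 1.95, 1.46 and 3.69 CPM, with 29 to 43 UMIs per library and no ratio past 2-fold. The log2 ratio at 8 h of 0.59 became 1.95 with cells weighted equally and -0.22 with the CD3E, MS4A1 and NCR1 gates at 2 UMIs.

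TLR3 had the most even level of the 6. In CD3E-gated cells it was at 20.2 CPM without LPS (18.1 to 22.6) and at 18.8, 19.3 and 18.4 CPM with LPS. All 4 intervals overlapped, and the ratios of 0.931 (0.803 to 1.08), 0.957 (0.823 to 1.11) and 0.912 (0.750 to 1.11) had intervals that stay well inside 2-fold. The NCR1 gate gave 22.0, 28.2, 23.1 and 22.8 CPM from 6 to 14 UMIs, with intervals that overlap those of the CD3E gate. MS4A1-gated cells had 1.59, 1.43, 1.62 and 1.43 CPM. CD14-gated cells had 5 UMIs without LPS (0.743 CPM) and 1, 0 and 1 with LPS. The CD3E gate was 12.3 times as high as the other 3 gates without LPS (8.18 to 19.3) and 9.50, 8.33 and 7.22 times as high with LPS, and it held 74.5% to 82.9% of all TLR3 UMIs. Over all cells TLR3 was at 11.2, 11.6, 12.1 and 11.6 CPM, with ratios of 1.03, 1.07 and 1.03.

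Within the CD3E gate, TLR3 was followed in cells that had UMIs of only 1 of 3 subset markers, a split made after the values were seen. Cells with CD4, of helper T cells, had 23.6 CPM without LPS (19.5 to 28.2) and 24.8, 22.8 and 21.6 CPM with LPS. Cells with CD8A or CD8B, of cytotoxic T cells, had 17.2 CPM (12.8 to 22.7) and 16.3, 17.4 and 10.4 CPM. Cells with WC1, a scavenger receptor family of bovine γδ T cells, had 19.8 CPM (12.1 to 30.6) and 13.4, 15.7 and 11.9 CPM. TLR3 was thus present in all 3 subsets. The CD4 subset had the highest level in every library, but its interval and that of the CD8 subset overlapped without LPS and at 4 h. These intervals were apart at 2 h (21.1 to 29.0 against 12.6 to 20.9). At 8 h they were only just apart, with a lower limit of 16.62 CPM against an upper limit of 16.57 CPM. Cells with FLT3, a receptor of dendritic cells, and no gate marker numbered 53 in all. They had 10 TLR3 UMIs and gave 10.8 to 17.3 CPM, with intervals too wide to set them apart from the T cells.

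TLR10 was close to a B cell marker in these data. MS4A1-gated cells had 10.9 CPM without LPS (8.76 to 13.4) and 10.2, 9.23 and 10.0 CPM with LPS, and the 4 intervals overlapped. The ratios were 0.931 (0.705 to 1.23), 0.846 (0.633 to 1.13) and 0.918 (0.621 to 1.34). This gate held 86.4%, 83.7%, 90.8% and 82.4% of all TLR10 UMIs. The other 3 gates together had 4, 7, 1 and 3 UMIs, so the level in the MS4A1 gate was 62.7 times as high without LPS, with an interval of 23.6 to 235. CD3E-gated cells had at most 0.346 CPM.

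TLR6, the partner of TLR2 for diacylated lipoproteins, was the 1 member found in every gate of every library. MS4A1-gated cells had 10.1 CPM without LPS (7.99 to 12.5) and 8.49, 7.52 and 7.16 CPM with LPS, CD3E-gated cells 3.58, 3.35, 4.08 and 4.73 CPM, and CD14-gated cells 7.13, 4.76, 7.93 and 1.57 CPM. The 8 h value in the CD14 gate was a single UMI. It was called lower (ratio 0.220), but its interval of 0.00547 to 1.29 includes 1, and the call was lost without the upper limit on genes and with the CD14 limit at 1 UMI. The CSF3R cells without a gate marker had 0 TLR6 UMIs, which with their depth leaves upper limits of 16.7 to 48.3 CPM, above the level in every gate. The MS4A1 gate was 2.16 times as high as the other gates without LPS (1.60 to 2.90) and 2.42, 1.72 and 1.59 times as high with LPS. The call without LPS was lost in 4 of 10 alternatives, among them both other scalings. In the RefSeq gene table, which is of another assembly than the tables, TLR6 and TLR10 overlap, and TLR1 is given as a synonym of both. How the counting treated reads shared by these genes is not given in the sources used here, so the levels of TLR6 and TLR10 are uncertain in that respect.

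TLR7 had the largest ratio to no LPS of the members tested. In MS4A1-gated cells it was at 3.68 CPM without LPS (2.48 to 5.25) and at 3.18 CPM after 2 h (2.27 to 4.32). It was at 9.40 CPM after 4 h (7.73 to 11.3) and at 5.72 CPM after 8 h (3.67 to 8.52). The 4 h library stood clear of the first 2 libraries, and the 8 h interval overlapped with those of all other libraries. The ratio at 4 h was 2.56 (1.69 to 3.97), which stayed at least 2-fold in all 10 alternatives, and that at 8 h was 1.56 (0.871 to 2.75). Over all cells the levels were 1.27, 0.982, 3.29 and 1.80 CPM, with a ratio of 2.58 at 4 h (1.85 to 3.66). The MS4A1 gate held 61.2% of the TLR7 UMIs without LPS, when 32.7% were in the CD14 gate, and 85.1%, 83.3% and 80.0% with LPS. The summed level of the plasmacytoid dendritic cell marker list was at 337, 386, 481 and 268 CPM in this gate. Of its 6 genes 4 were named, TCF4, SPIB and GZMB among them, and none of the 4 was at 0. The summed level was higher at 4 h than without LPS in the other gates too, at 278 against 92.9 CPM in the CD3E gate, 115 against 29.8 CPM in the CD14 gate and 160 against 47.2 CPM in the NCR1 gate. Its part in the result was not tested.

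In CD14-gated cells TLR7 was under the minimum of 20 UMIs in every comparison with LPS, so its values are a description. They had 16 UMIs in 707 cells without LPS (2.38 CPM, 1.36 to 3.86) and 1, 0 and 0 UMIs in the 308, 117 and 66 cells with LPS. The ratio intervals were 0.00281 to 0.759 at 2 h, 0 to 1.54 at 4 h and 0 to 2.74 at 8 h. Summed over the 3 LPS libraries, a step chosen after the values were seen and still under that minimum, this was 1 UMI in 491 cells (0.187 CPM) and a ratio of 0.0788 with an interval of 0.00188 to 0.507. Without the upper limit on genes the gate had 21, 1, 1 and 4 UMIs, which reached the minimum. The ratios were then 0.0918 at 2 h (0.00222 to 0.571) and 0.266 at 4 h (0.00644 to 1.66), the latter with an interval that includes 1. The 8 h level was then 2.98 CPM (0.813 to 7.64), no longer below that without LPS. CD3E-gated cells had 0, 2, 2 and 1 UMIs of TLR7.

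TLR9 was the rarest detected member, with 28, 33, 25 and 20 UMIs per library. MS4A1-gated cells had 2.82 CPM without LPS (1.79 to 4.23) and 1.91, 1.54 and 3.1 CPM with LPS, and all intervals overlapped. They held 82.1%, 72.7%, 72.0% and 65.0% of the UMIs. CD3E-gated cells had 0.115 to 0.202 CPM, and the CD14 gate had 0 or 1 UMI in each library. TLR5 had 0 UMIs in the cells kept, which allows up to 0.0779, 0.0627, 0.0747 and 0.180 CPM (3 UMIs of each library), and 2 UMIs at 4 h in barcodes above 3000 genes.

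Set against no LPS over all cells, 0 of 6 members passed 2-fold at 2 h, where 1.97% of all genes were higher and 5.37% lower. At 4 h TLR7 was higher (2.5% of all genes) and TLR2 lower (7.55%). At 8 h TLR2 was lower (5.09%) and 0 of 6 were higher (2.81%). In the MS4A1 gate 1 of 6 was higher at 2 h (TLR2, against 3.52% of all genes), 1 of 6 at 4 h (TLR7, against 3.48%) and 0 of 5 at 8 h (3.22%), and 0 were lower (4.67%, 8.15% and 2.78% of all genes in order of time). In the CD14 gate 2 members had enough UMIs, and TLR6 at 8 h was the single call (7.36% of all genes were lower), while 0 of 3 passed in the CD3E gate at any time. There 1.26%, 1.95% and 2.54% of all genes were higher and 1.97%, 2.62% and 1.2% lower. In the NCR1 gate TLR3 alone had enough UMIs, at 2 h only, and stayed within 2-fold (5.19% of all genes were higher and 3.09% lower). The median log2 ratio of the members over all cells was -0.18, 0.03 and 0.13, beside -0.04, 0.03 and 0.12 for all genes. In the CD14 gate at 2 h, 27.1% of all genes were lower and their median log2 ratio was -0.59, against -0.06 for TLR2. This value depended on the scaling, since the TLR2 log2 ratio was 0.42 with TMM and 0.52 with DESeq2 factors, and 0.19 with cells weighted equally.

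**Figure D3:**
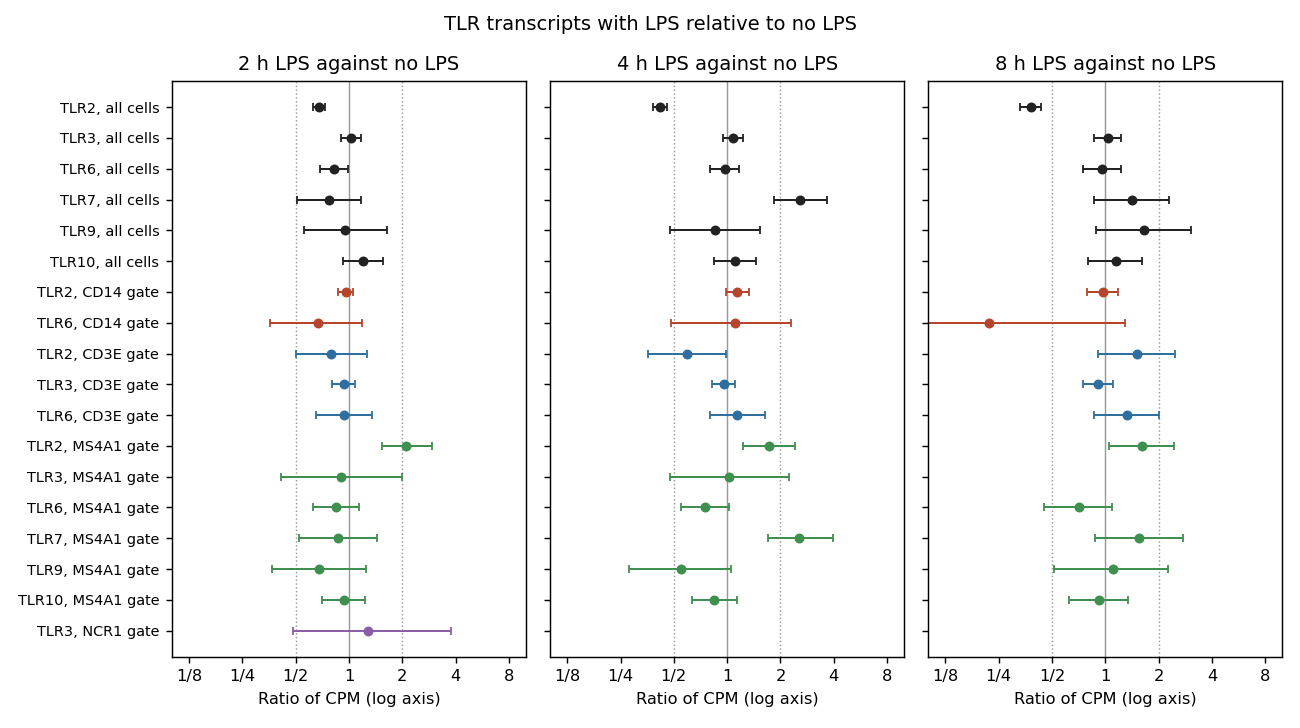
Ratio of CPM with LPS to CPM without LPS (horizontal log axis) for each member with at least 20 UMIs over the sums compared, over all cells and by gate, with 95% counting intervals and dotted lines at 2-fold in either direction (the interval of TLR6 in the CD14 gate at 8 h runs past the axis). TLR2 over all cells lies at 0.416 and 0.380 at 4 h and 8 h, TLR2 in the MS4A1 gate at 2.10 at 2 h, TLR7 at 2.58 (all cells) and 2.56 (MS4A1 gate) at 4 h, and TLR3 between 0.912 and 1.07 over all cells and in the CD3E gate.

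The share of cells with a UMI was also taken for each member. Without LPS, 65.1% of CD14-gated cells had a TLR2 UMI (61.4% to 68.6%), and with LPS 71.4%, 70.1% and 48.5% (36.0% to 61.1% for the last), against 1.05%, 0.780%, 0.693% and 1.77% of the shallower CD3E-gated cells. The share at 8 h lay below that without LPS with intervals apart, although the level of 167 CPM did not differ from 172 CPM beyond counting error. When each cell was thinned to 1000 UMIs, which left out 35, 8, 11 and 9 cells of the CD14 gate, the shares were 16.6%, 17.8%, 23.0% and 11.8% against 0.263%, 0.180%, 0.148% and 0.456%. TLR3 was seen in 8.18%, 7.56%, 9.01% and 8.65% of CD3E-gated cells and in 0.737%, 0.657%, 0.935% and 0.686% of MS4A1-gated cells, which had a like depth. TLR7 was seen in 1.59%, 1.56%, 4.93% and 3.16% of MS4A1-gated cells (0.330%, 0.345%, 0.886% and 0.524% after thinning), against 0% to 0.0609% of CD3E-gated cells. TLR10 was seen in 4.71% to 5.35% of MS4A1-gated cells and TLR9 in 0.935% to 1.78%.

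The genes that act with the TLRs were followed as a list of 39, of which 38 were named and 37 had enough UMIs over all cells. Of these, 2, 0 and 0 were higher and 3, 4 and 3 lower at the 3 times in order. Over all genes 1.97%, 2.5% and 2.81% were higher and 5.37%, 7.55% and 5.09% lower. The genes called lower were CD14, given above, CD36 and CTSB at all 3 times and CTSS at 4 h. CD36, a scavenger receptor that hands diacylated ligands to TLR2 and TLR6, went from 117 CPM to 24.4, 5.75 and 22.5 CPM. CTSB, an endosomal protease, went from 300 CPM to 123, 66.2 and 124 CPM, and CTSS, a protease that cuts endosomal TLRs, from 339 to 150 CPM at 4 h (ratio 0.442). The CD14 gate shrank from 9.04% to 1.58% of the cells by 4 h, and within it CTSB and CTSS stayed within 2-fold at all 3 times. Of 6 genes that restrain the pathway, 2 were higher at 2 h. TNFAIP3, a ubiquitin-editing inhibitor of NF-κB, went from 99.1 to 283 CPM (ratio 2.86) and IRAK3, an inactive kinase that blocks IRAK signalling, from 12.3 to 26.1 CPM (ratio 2.13). The median log2 ratio of the list was -0.09, -0.05 and -0.07, beside -0.04, 0.03 and 0.12 for all genes.

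In the CD14 gate 34 genes of the list had enough UMIs, with 4, 4 and 2 higher and 6, 3 and 2 lower at the 3 times in order. Over all genes 4.71%, 6.97% and 8.12% were higher and 27.1%, 13.5% and 7.36% lower. TNFAIP3 was 4.39, 3.30 and 2.14 times as high as without LPS. IRAK2, a kinase of the MyD88 pathway, went from 66.5 to 153 and 154 CPM at 2 h and 4 h, PELI1, a ubiquitin ligase of that pathway, from 47.4 to 103 and 144 CPM, and IRAK3 was 2.06 times as high at 2 h. TIRAP, the adaptor that bridges TLR2 and TLR4 to MyD88, was 2.49 times as high at 4 h (1.58 to 3.83). CD36 fell within the gate too, from 527 to 216 and 139 CPM at 2 h and 4 h. AP3B1 and IKBKG were lower at 2 h (ratios 0.392 and 0.424), and SIGIRR was also called lower, on 5 UMIs. TAB1 had 31 UMIs without LPS and 0, 2 and 1 with LPS and was called lower at 2 h and 4 h, the latter with an interval that includes 1. TICAM2 had 57 UMIs without LPS and 19, 2 and 2 with LPS. At 8 h LY86 and TICAM2 were called lower on 2 UMIs each and SIGIRR higher on 4 UMIs, opposite to its call at 2 h, all with intervals that include 1. The median log2 ratio of the list was -0.43, 0.10 and 0.19, beside -0.59, -0.18 and 0.01 for all genes.

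In the MS4A1 gate, added after the values were seen because TLR2 and TLR7 moved there, 3, 3 and 2 of 36 genes of the list were higher and 3, 4 and 0 lower at the 3 times in order, where 3.52%, 3.48% and 3.22% of all genes were higher and 4.67%, 8.15% and 2.78% lower. TNFAIP3 went from 23.9 to 150, 83.6 and 58.0 CPM, IRAK3 from 12.4 to 47.2 and 39.1 CPM at 2 h and 4 h, and PELI1 from 17.0 to 48 and 36.1 CPM. SIGIRR, a receptor that dampens TLR signalling, was at 53.8 CPM without LPS and 24.6 CPM at 4 h (ratio 0.457, 0.393 to 0.532). IKBKE was lower at 2 h and 4 h and higher at 8 h, from 17 to 31 UMIs. UNC93B1, the chaperone of the endosomal TLRs, is named after its values were seen and stayed within 2-fold in all 3 views.

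Accessibility was read from scATAC-seq, which cuts open chromatin with a transposase, as counts per gene and nucleus. TLR2, TLR3, TLR9 and TLR10 were listed in all 4 tables, TLR7 in those of 2 h and 4 h, and TLR5 and TLR6 in none. The library without LPS held 975012 counts against 11957904 to 30250143 in the others, so it gave only 12 to 99 counts per member. Most values were even (88.7% to 93.8%), so the intervals were computed on the counts divided by 2. TLR2 was at 73.8, 55.5, 61.2 and 50.8 CPM, TLR3 at 102, 84.8, 79.6 and 84.9 CPM and TLR9 at 58.5, 54.8, 53.8 and 49.8 CPM. The median listed gene was at 67.7, 50.9, 54.1 and 64.6 CPM, below TLR3 in every library, and TLR3 ranked at percentile 60.4 to 67.9. The intervals of the LPS libraries overlapped for TLR3 and TLR9 but not between 4 h and 8 h for TLR2 (57.1 to 65.5 against 45.2 to 56.8). TLR10 was at 12.3 CPM without LPS, 44.0 and 41.3 CPM at 2 h and 4 h and 22.0 CPM at 8 h, and was the only member past 2-fold, higher at 2 h and 4 h (1 of 4 members each, against 9.22% and 8.23% of all genes), with 0 of 4 lower (6.67% and 5.39%) and 0 of 4 past 2-fold at 8 h (4.29% higher and 6.44% lower). The value without LPS rested on 12 counts in 9 nuclei. The call was lost when nuclei with a count were divided by the summed counts of the library. That scaling also lowered the log2 ratios of TLR3 and TLR9 at 2 h, from -0.27 to -0.72 and from -0.11 to -0.63. It therefore does not compare shares of nuclei and cannot decide on the call. Set against 2 h, TLR10 at 8 h had a ratio of 0.50 (0.413 to 0.606), whose log2 value fell just short of -1 (0 of 4 members, against 7.39% of all genes lower and 1.43% higher). TLR7 was at 7.34 CPM at 2 h and 11.1 CPM at 4 h, a ratio of 1.51 (1.17 to 1.94), where 0.624% of all genes were at least 2-fold higher and 2.31% lower, and 0 of 5 members were.

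Because CD3E was in no scATAC-seq table, nuclei were classed by their counts on the B cell, T cell and monocyte marker genes, a step chosen after the files were seen. At 2 h, 4 h and 8 h this gave 751, 493 and 334 nuclei with B cell markers, 785, 529 and 389 with T cell markers and 305, 223 and 169 with monocyte markers, and the library without LPS was too shallow to be used. B-marked nuclei had more counts than T-marked nuclei on TLR2 (ratios 2.94, 3.18 and 3.13), TLR9 (4.55, 3.51 and 3.51) and TLR7 (14.1 and 13.5). These made 3 of 5, 3 of 5 and 2 of 4 members at least 2-fold higher, against 10.4%, 9.33% and 7.85% of all genes. TLR10 had ratios of 1.98, 1.57 and 1.25, below the limit, while its RNA was 37.4 times as high in the MS4A1 gate as in the CD3E gate at 2 h (16.7 to 104). TLR3 had ratios of 0.993 (0.815 to 1.2), 0.782 (0.625 to 0.968) and 0.870 (0.622 to 1.21), while its RNA ratio between the same gates was 0.0759, 0.0839 and 0.0776. TLR3 counts in B-marked nuclei (75.0 to 82.5 CPM) thus lay near those in T-marked nuclei (83.1 to 95.9 CPM), although few of its transcripts were found in B cells.

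TLR2 showed a similar gap between both assays. B-marked nuclei had 83.8, 92.9 and 83.9 CPM of TLR2 counts, against 74.9, 69.1 and 41.7 CPM in monocyte-marked nuclei and 28.5, 29.2 and 26.8 CPM in T-marked nuclei. The intervals of B-marked and monocyte-marked nuclei overlapped at each time (64.7 to 107 against 24.3 to 66.8 at 8 h). In RNA, the MS4A1 gate had 5.57% to 8.14% of the TLR2 level of the CD14 gate in the same libraries. The monocyte class rested on 5 to 7 of 11 listed genes, and the rule that assigned fragments to genes was not given in the sources used here. In the RefSeq gene table, of another assembly, TLR2 overlaps RNF175 and TLR3 overlaps LOC132344049. The part of these overlaps in the counts on TLR2 and TLR3 was not tested.

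**Figure D4:**
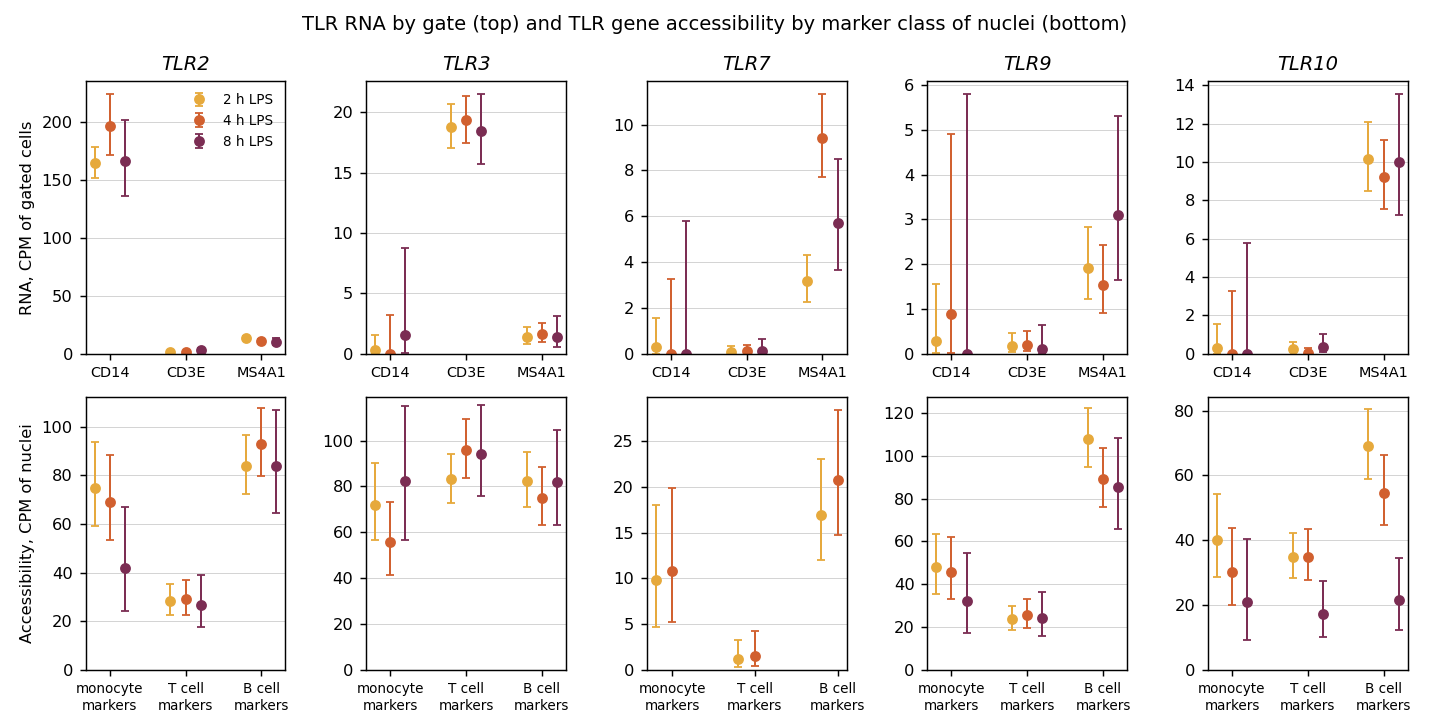
RNA of 5 TLRs in gated cells (top, CPM) and scATAC-seq counts on the same genes in nuclei classed by marker counts (bottom, CPM), at 2 h, 4 h and 8 h with 95% intervals. TLR9, TLR7 and TLR2 have more counts in B-marked than in T-marked nuclei, TLR3 has 75.0 to 95.9 CPM in both classes while its RNA is at 1.43 to 1.62 CPM in the MS4A1 gate and 18.4 to 19.3 CPM in the CD3E gate.

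Over the 16 sums of gate and library, the genes whose log2(CPM + 1) followed each member most closely were taken from 9640 genes, leaving out gate markers and members. For TLR2 they were SIRPA, an inhibitory receptor of myeloid cells (Pearson r = 0.995), MARCKSL1 (0.986) and TBC1D9 (0.980). For TLR3 they were RORA, a nuclear receptor of T and innate lymphoid cells (0.986), NIPAL1 (0.984) and PAWR (0.982). For TLR10 they were EBF1, a transcription factor of B cells (0.995), ST8SIA1 (0.994) and B4GALT6 (0.994). TLR7 was followed by ADA2 (0.940) and by ENSBTAG00000048832 (0.942) and ENSBTAG00000046076 (0.936), which have no symbol in the tables. TLR6 had the loosest likeness, with SKA3 (0.802), FAM160A2 (0.771) and TRIM2 (0.766), and TLR9 was under 200 UMIs. The sums share libraries and 4 cell classes, and genes that mark the same class are alike by that.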

How the data were processed

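Per the labels, the scRNA-seq libraries were made with 3′ v3 chemistry and the scATAC-seq libraries with v1.1 chemistry, and the submitters' processing notes name Cell Ranger and the ARS-UCD1.2 (bosTau9) genome. The authors deposited raw counts without normalization: UMI counts per gene and barcode, and scATAC-seq counts per gene and barcode. The rule of the latter is not given in the sources used here.

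The study's limits on genes and mitochondrial share were applied, and its limit of 200 UMIs, printed as an upper one, was read as a minimum. The cells kept are more than the study states for each library. Cells were gated on raw UMIs, and UMIs were summed per library and gate and scaled to CPM in Python 3.11.15 with numpy 2.4.6, pandas 2.3.3 and scipy 1.17.1. Levels have exact Poisson intervals, shares exact binomial (Clopper-Pearson) intervals and ratios exact conditional binomial intervals, at 95%, for counting error only. The 4 libraries of each assay held 16657841 to 47875879 UMIs and 975012 to 30250143 scATAC-seq counts. TMM factors of edgeR 4.0.16 and size factors of DESeq2 1.42.0 (R 4.3.3) served as other scalings only. Other alternatives changed the limits on cells, the gates, the pseudocount and the weight of cells. The ratio step was tested on simulated data with 200 changed genes. With 1 library per group no test was possible.

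All members are named, with TLR4, the genes of the pathway list past 2-fold over all cells or in the CD14 gate (up to 5 per direction and time) and the 3 genes most like each member. The members and lists were chosen with earlier results of these data known. The split by CD4, CD8, WC1 and CSF3R, the sum of LPS libraries, the pathway list in the MS4A1 gate and the classes of nuclei were added after the data were seen. The nuclei gates planned on 4 marker genes were not made, since CD3E was not listed. Names of scATAC-seq genes came from the Ensembl identifiers of the scRNA-seq tables. RefSeq names (8 of 9 members matched) were used only for neighbouring genes. No coordinates are given.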

Additional observations from a re-analysis of the deposited data

Results flagged for a closer look

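Barcodes above 3000 genes enter no comparison of the report except where the limit is lifted. In them TLR10 was at 3.02 CPM at 8 h (43 UMIs, interval 2.19 to 4.07), above the 0.975 CPM of the library without LPS (19 UMIs, 0.587 to 1.52), and this is why it is listed here. The same barcodes had 1.45 CPM at 2 h and 1.97 CPM at 4 h. In the cells kept TLR10 was at 2.68 and 3.06 CPM without LPS and at 8 h, with intervals that overlap.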

How the results depend on the processing

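Each treatment had 1 library, so leaving out a library was not possible, and no value has a replicate error. No paired analysis was possible because each group holds a single library and no result comes from a test. Depth limits TLR7, TLR9 and all values of the NCR1 gate and of scATAC-seq without LPS.

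Relative to CPM, TMM moved all log2 ratios by 0.82 in the CD14 gate against the other gates without LPS, by 0.48 in the CD14 gate at 2 h, by 0.12 and 0.14 in the MS4A1 gate at 2 h and 4 h and by -0.13 over all cells at 8 h. The count of members past 2-fold over all cells went from 2 to 1 at 4 h with a pseudocount of 1 CPM and with cells weighted equally, and from 1 to 0 at 8 h without the upper limit on genes and with cells weighted equally. In the CD14 gate it went from 0 to 1 at 2 h and 4 h and from 1 to 0 at 8 h without the upper limit, and to 0 at 8 h with the CD14 limit at 1 UMI. In the CD3E gate it was 1 at 8 h with cells weighted equally. In the MS4A1 gate it was 0 at 2 h with the CD14 limit at 1 UMI, a pseudocount of 1 CPM or cells weighted equally, 2 at 4 h without the upper limit or with the other gates at 2 UMIs, and 1 at 8 h with cells weighted equally. Pathway counts became 1 over all cells at 8 h without the upper limit (3 before), and in the CD14 gate 6 at 2 h with TMM (10 before), 13 at 4 h (7 before) and 11 at 8 h (4 before) with cells weighted equally. Without LPS the members higher in the CD14 gate than elsewhere became 2 with mitochondrial UMIs under 10%, barcodes of at least 2000 UMIs or the CD14 limit at 4 UMIs, and 3 with TMM and DESeq2 factors (1 before). For the NCR1 gate they became 2 without the upper limit or with the CD14 limit at 1 UMI, 4 with the other gates at 2 UMIs, and 0 with a pseudocount of 1 CPM or cells weighted equally (1 before). TLR2, TLR7, TLR9 and TLR10 had 0 UMIs in the NCR1 gate without LPS, and TLR6 had 2. The count of 4 thus includes members with 0 UMIs, which passed through the 0.5 UMI added to a small sum. It does not show higher levels in these cells, and no share over all genes was taken for it. TLR2 was seen in 73.7% of CD14-gated cells with at least 2000 UMIs. Thinned to 1000 UMIs, the shares without LPS became 16.6% (TLR2), 2.04% (TLR3), 1.18% (TLR6), 0.330% (TLR7), 0.261% (TLR9) and 1.1% (TLR10). For accessibility the count of members past 2-fold became 0 at 2 h and 4 h when nuclei with a count were divided by the library's summed counts. It became 1 at 8 h with barcodes of at least 500 counts, and 1 for 8 h against 2 h with TMM.

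Of the log2 ratios called past 2-fold, 3 changed sign. In the CD14 gate against the other gates at 8 h these were TLR6 (0.23, CD14 limit at 1 UMI) and TLR7 (0.77, no upper limit). In the NCR1 gate without LPS it was TLR3 (-0.17, other gates at 2 UMIs). Of the other alternative values, 236 counts and shares and 1417 single values stayed within 1.5 times the count or inside the counting interval, and 112 single values moved outside it without a change of sign in a called value. Ratios that were not called also changed sign among these 112. With barcodes of at least 500 counts, the log2 ratios of TLR2 accessibility to no LPS did so at all 3 times. They went from -0.42, -0.28 and -0.55 to 0.19, 0.33 and 0.07. Except for the settings whose construction removes UMIs or cells, the cause of these changes was not tested.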
